A study of Mus musculus with 12 samples.

Results

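Expression of 7 genes of cholesterol synthesis and its control was examined in the ventromedial nucleus of the hypothalamus (VMN) of mice in which AMPK, a kinase that senses cellular energy, was targeted by a dominant-negative mutant (DN). The genes were Hmgcs1, Fdps, Fdft1, Sqle, Cyp51, Insig1 and Srebf2. They were taken from a written list by matching symbols to the identifiers of the count tables, and all 7 were found among 46517 identifiers. The rule used symbols and no level or ratio. Although the list was named for synthesis and uptake, it holds no lipoprotein receptor, so receptors were taken from a longer list of 40 other sterol genes.

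All mice were fed regular chow and fasted overnight, and the VMN was dissected from 6 pools of 6 animals. Translating ribosome affinity purification (TRAP), in which a GFP-tagged ribosomal protein is pulled down together with the RNA on its ribosomes, was used to obtain RNA of SF1 cells, the VMN neurons that carry steroidogenic factor 1. From each pool an input library was made of the whole tissue RNA and an output library of the immunoprecipitated RNA, so the 12 libraries fell into 4 groups of 3: CTRL input, CTRL output, DN input and DN output. Animals of all groups carried an adeno-associated virus (AAV) for the GFP-L10 ribosomal fusion protein. The AAV for the dominant-negative AMPK is named in the treatment text of CTRL samples too, but their characteristics mark the mutant as absent, and the characteristics and titles were followed. Whether CTRL animals received another virus in its place is not stated, so an effect of the mutant cannot be told apart from that of an added virus. The labels give no age, sex, strain, promoter or Cre line. Nor do they give the mutant's sequence, so counts were not used to check which libraries carried it, and RNA does not measure AMPK activity.

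Cells make cholesterol from acetyl-CoA by way of mevalonate, farnesyl diphosphate, squalene and lanosterol. The pathway is controlled by SREBP2, the product of Srebf2, a membrane-bound transcription factor that is released by cleavage in the Golgi when sterols are low and switches on most enzymes of the pathway. When sterols are plentiful, INSIG proteins hold SREBP2 and its escort SCAP in the endoplasmic reticulum. Because plasma lipoproteins hardly cross the blood-brain barrier, the brain makes its own cholesterol, with astrocytes and myelinating oligodendrocytes as major producers, and astrocytes pass it to neurons on apolipoprotein E particles.

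Positions are those of GENCODE release 21 for mouse on GRCm38, and counts cover the exons. Hmgcs1 (ENSMUSG00000093930), the cytosolic HMG-CoA synthase, lies on chromosome 13 at 119690379 to 119708260 on the plus strand. Fdps (ENSMUSG00000059743), farnesyl diphosphate synthase, lies on chromosome 3 at 89093588 to 89101959 on the minus strand. Fdft1 (ENSMUSG00000021273), squalene synthase, the first enzyme committed to sterols, lies on chromosome 14 at 63145150 to 63179578 on the minus strand. Sqle (ENSMUSG00000022351), squalene epoxidase, lies on chromosome 15 at 59315077 to 59331192 on the plus strand. Cyp51 (ENSMUSG00000001467), lanosterol demethylase, lies on chromosome 5 at 4081145 to 4104746 on the minus strand. Insig1 (ENSMUSG00000045294), which retains SCAP in the endoplasmic reticulum, lies on the same chromosome at 28071363 to 28078662 on the plus strand. Srebf2 (ENSMUSG00000022463) lies on chromosome 15 at 82147181 to 82205379 on the plus strand.

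Promoters are shown because SREBP2 binds the sterol regulatory element (SRE) in genes it controls. Another reason is that Hmgcs1 is the member the results below turn on. The sequences are RefSeq's for GRCm38.p6, which were at hand for 4 of the 7 genes, and run 5′ to 3′ on the gene's strand up to the first annotated exon or the RefSeq start, whichever came first. The stretches are chr13:119690101-119690350 (plus strand) for Hmgcs1, chr5:4104747-4104947 (minus strand) for Cyp51, chr5:28071162-28071362 (plus strand) for Insig1 and chr15:82147019-82147180 (plus strand) for Srebf2. Capitals mark matches on either strand to the SRE TCACNCCAC, to the CCAAT box CCAAT and to the GC box GGGCGG.
Hmgcs1: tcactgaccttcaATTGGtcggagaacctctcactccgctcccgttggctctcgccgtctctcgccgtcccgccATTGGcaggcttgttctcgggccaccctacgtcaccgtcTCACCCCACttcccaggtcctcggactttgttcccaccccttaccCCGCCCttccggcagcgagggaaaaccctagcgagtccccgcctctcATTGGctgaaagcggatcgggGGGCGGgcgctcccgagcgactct
Cyp51: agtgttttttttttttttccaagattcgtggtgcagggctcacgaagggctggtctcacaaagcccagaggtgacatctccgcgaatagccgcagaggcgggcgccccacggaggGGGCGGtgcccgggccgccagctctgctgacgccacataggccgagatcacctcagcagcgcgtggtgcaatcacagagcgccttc
Insig1: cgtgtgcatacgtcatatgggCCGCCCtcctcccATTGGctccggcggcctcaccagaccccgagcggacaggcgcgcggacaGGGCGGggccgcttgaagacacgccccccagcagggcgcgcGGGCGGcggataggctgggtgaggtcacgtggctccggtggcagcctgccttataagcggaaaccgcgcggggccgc
Srebf2: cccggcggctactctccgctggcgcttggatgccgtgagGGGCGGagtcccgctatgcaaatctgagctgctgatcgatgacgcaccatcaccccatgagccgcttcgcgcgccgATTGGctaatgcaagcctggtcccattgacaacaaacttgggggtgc

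In the 250 bases before the RefSeq start, the SRE letters were found in Hmgcs1, as TCACCCCAC from -137 to -129, and not in the other 3 windows. Among 32851 promoter windows of 250 bases, 0.496% held TCACCCCAC and 1.05% held TCACNCCAC. A CCAAT box was present in all 4 windows, against 33.9% of all windows, and so was a GC box, against 32.7%. Hmgcs1 held 3 CCAAT boxes, while Cyp51, Insig1 and Srebf2 held 1 each, that of Cyp51 at -29 to -25 inside its annotated exon and so not printed. Over the 35 of 47 sterol genes with a promoter entry, 1 held the SRE letters in any of its windows, 25 a CCAAT box and 26 a GC box. These 35 genes had 49 windows. Their counts are per gene and cannot be set against the shares above, which are per window. None of the 3 motifs contains another. These are letter matches and not measured binding. Only the letters given were searched, so a window without them may still hold an SRE.

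The libraries held 34.6 to 55.5 M counts in genes. Genes of the mitochondrial chromosome took 74.9 to 79.7% of these in inputs and 17.9 to 26.1% in outputs, which left nuclear genes with 8.54 to 11.3 M in each input library and 26.2 to 32.1 M in each output library. Levels are given as normalized CPM, counts scaled to library size (CPM) with TMM factors, which align the bulk of the genes between libraries. No 2 libraries held the same values. The p-values measure the spread between libraries of a group, which come from different pools. Output against input and the interaction were fitted without pairing the libraries of a pool. A fit with that pairing was an alternative. Markers of the captured cells were present: Nr5a1, which encodes steroidogenic factor 1, was at 1.95, 2.97 and 1.29 CPM in CTRL inputs against 36.2, 19.2 and 12.5 in CTRL outputs, and at 6.49, 6.88 and 4.72 in DN inputs against 10.9, 31.1 and 25.1 in DN outputs. Of 9 VMN neuron markers, 7 were called higher in outputs in CTRL and 7 in DN, against 1.78% and 1.84% of all genes tested. Of 10 astrocyte markers, 8 were called lower in CTRL and 7 in DN, and of 10 oligodendrocyte markers 7 were called lower in each, against 1.42% and 1.54% of all genes tested. The marker lists were chosen with earlier results of these data known. Their counts describe the libraries and are no independent test of the capture.

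Hmgcs1 was well expressed in every library and highest in CTRL outputs, while Fdps was near 0 throughout (see the plot of levels by library). Hmgcs1 was at 83.3, 78.7 and 59.4 CPM in CTRL inputs and 134, 132 and 138 in CTRL outputs. In DN pools it was at 54.3, 85.2 and 74.9 in inputs and 89.3, 106 and 96.3 in outputs. All outputs were thus above all inputs, and the CTRL outputs were above the DN outputs with no overlap.

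Sqle, the epoxidase that turns squalene into the precursor of lanosterol, was at 37.5, 59.8 and 40.1 CPM in CTRL inputs and 80.5, 81.1 and 57.8 in CTRL outputs. It was at 46.9, 30.5 and 41.4 in DN inputs and 109, 46.8 and 96.7 in DN outputs. In each arm the lowest output lay within or near the input range, at 57.8 against a highest input of 59.8 in CTRL and at 46.8 against 46.9 in DN. Fdft1 was at 35.2, 30.3 and 37.0 CPM in CTRL inputs, at 46.1, 27.7 and 51.5 in CTRL outputs, and at 67.1, 38.6 and 50.5 in DN outputs. In DN inputs it was at 23.3, 93.1 and 35.4, so that DN input 2 alone held the highest Fdft1 value of all 12 libraries. Its groups overlapped between the fractions of an arm and between the arms of a fraction.

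Cyp51, which removes a methyl group from lanosterol, was at 34.8, 41.7 and 19.6 CPM in CTRL inputs, 22.8, 25.8 and 38.6 in CTRL outputs, 48.1, 23.9 and 37.7 in DN inputs and 19.2, 26.1 and 26.7 in DN outputs. All of its groups overlapped. Insig1 was at 28, 20.8 and 26 CPM in CTRL inputs, 21.4, 19.4 and 15.6 in CTRL outputs, 27.3, 22.1 and 27.2 in DN inputs and 21.2, 18.5 and 16.1 in DN outputs. Its SD was at most 3.76 CPM in a group (n = 3), and its DN outputs were below its DN inputs with no overlap. Srebf2 was at 31.0, 14.4 and 12.5 CPM in CTRL inputs, 15.5, 10.4 and 14.5 in CTRL outputs, 26.7, 16.8 and 33.3 in DN inputs and 6.57, 9.96 and 22.4 in DN outputs. The single values of this transcription factor varied widely within groups. Its groups, too, overlapped between the fractions of an arm and between the arms of a fraction.

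Fdps, the enzyme that joins isoprenoid units into farnesyl diphosphate, had 13 counts in all over the CTRL inputs, 44 over the CTRL outputs, 11 over the DN inputs and 22 over the DN outputs. It did not pass the filter on low counts in any comparison and was not tested, so 6 of the 7 genes have test results. Of its exon bases, 26.7% overlap another gene on the same strand, Gm43738, which had 0 counts in all libraries, and 26.2% of its 50-base stretches occur in transcripts of other genes. The share of 50-base stretches was 26.5% for Fdft1 and 11.6% for Hmgcs1, whose exon overlaps lie on the opposite strand. Fdft1 had 2691 to 10826 counts in a group. How the counting treated reads that match more than 1 gene is not given, and the part of shared sequence in the low count of Fdps was not tested. For the other members the share of exon bases that overlap another gene was 18.3% for Fdft1 (Ctsb, on the opposite strand), 12.1% for Hmgcs1 (the antisense gene Gm48342), 3.76% for Cyp51 (Akap9, on the opposite strand) and 0 for Sqle, Insig1 and Srebf2. Whether the counting used strand is not given, so reads from the 2 strands cannot be told apart there.

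**Figure D1:**
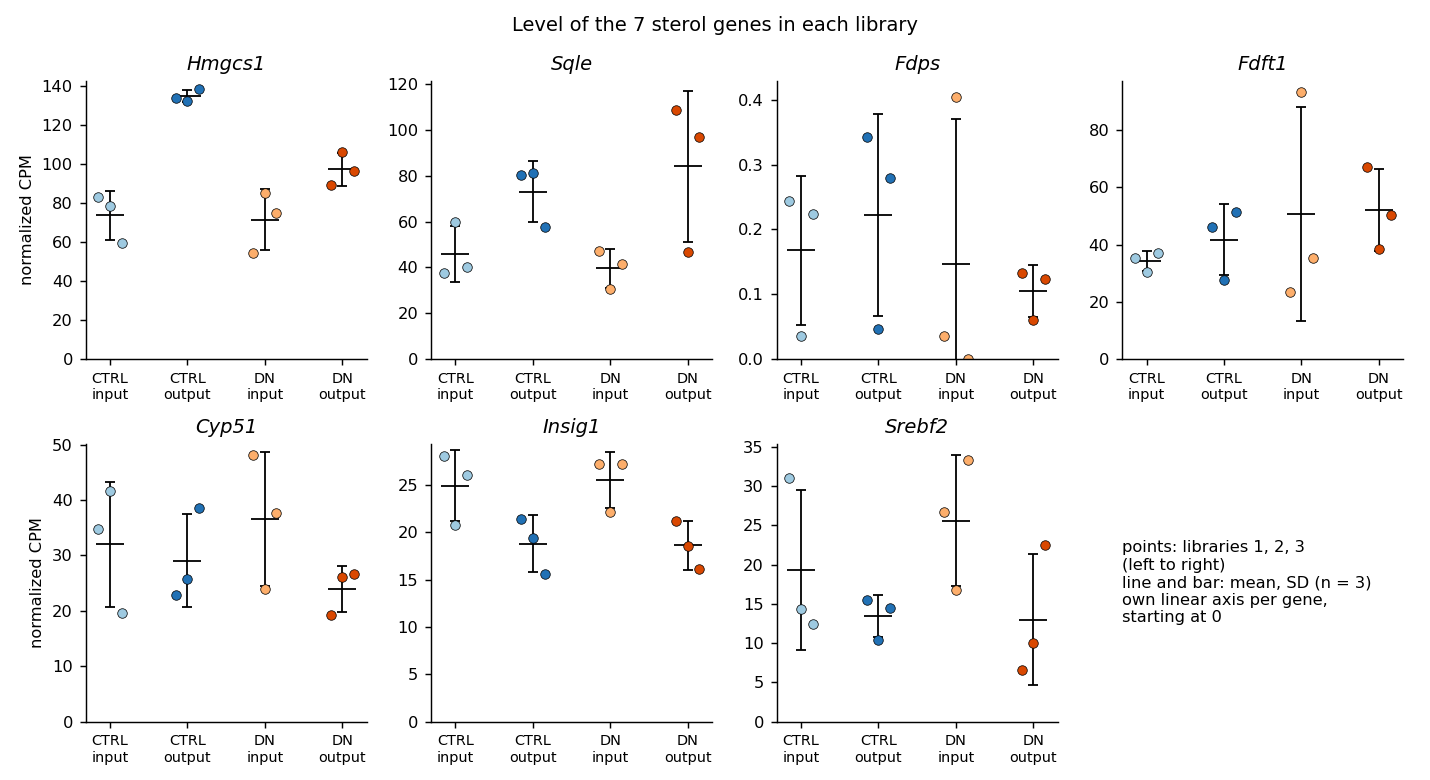
Normalized CPM (vertical axes, each from 0) of the 7 genes in each of the 12 libraries (points), by group on the horizontal axis, with bars for the mean and SD of 3 libraries. Hmgcs1 in CTRL outputs lies at 132 to 138, above every other library, while Fdps stays below 1 CPM throughout.

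Compared per kilobase of exon, Hmgcs1 was the most abundant member in every group, with 16.1 ± 2.75 CPM per kb (SD, n = 3) in CTRL inputs, 29.4 ± 0.696 in CTRL outputs, 15.6 ± 3.42 in DN inputs and 21.2 ± 1.87 in DN outputs. Srebf2 was sixth in every group, at 1.81 to 3.56 CPM per kb, and Fdps last. In CTRL inputs the next 4 were Sqle, Fdft1, Insig1 and Cyp51, at 7.25 to 8.25 CPM per kb, and each overlapped its neighbour in the order. In CTRL outputs the order was Hmgcs1, Sqle, Fdft1, Cyp51, Insig1, Srebf2 and Fdps, with no overlap between Hmgcs1 and Sqle, between Insig1 and Srebf2, or between Srebf2 and Fdps. In DN inputs even Hmgcs1 overlapped its neighbour, Fdft1, whose mean of 12 ± 8.83 CPM per kb rested on DN input 2. In DN outputs Hmgcs1, Sqle and Fdft1 overlapped in turn and lay above Insig1 and Cyp51, which overlapped each other. These orders are of counts per kilobase of all annotated exons, from amplified RNA. The part of amplification, and of the shared sequence of Fdps, Fdft1 and Hmgcs1, in them was not tested.

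The pull-down was then set against its input to ask which of these RNAs were relatively more abundant on the ribosomes of SF1 cells than in the tissue. Of the 6 genes tested, Hmgcs1 rose in CTRL outputs, by 0.86 ± 0.18 on the log2 scale (SE; 95% interval 0.47 to 1.25; 1.82-fold; adjusted p = 0.0251, edgeR). It was higher in the output of all 3 CTRL pools, with log2 ratios of 0.68, 0.74 and 1.21. None of the others passed in CTRL, so 1 of 6 members was called, against 3.2% of all genes tested, 1.78% being higher and 1.42% lower. Hmgcs1 was also the member whose CTRL outputs and inputs did not overlap, against 23.1% of all genes tested. The adjusted p of Hmgcs1 was 0.05 and not below the threshold with upper quartile scaling, and 0.165, 0.209 and 0.119 without CTRL pool 1, 2 or 3. The fitted difference itself stayed similar, at 0.80 with upper quartile scaling and 0.96, 0.93 and 0.72 without pool 1, 2 or 3. With DESeq2 the adjusted p was 0.000505, and it ranged from 0.000505 to 0.209 over all alternatives. Hmgcs1 was also called by edgeR in CTRL with the libraries paired by pool.

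In DN pools the fitted difference of Hmgcs1 between output and input was 0.43 ± 0.23 (95% interval -0.08 to 0.95; adjusted p = 0.414, edgeR), with pool ratios of 0.71, 0.32 and 0.36. The outputs did not overlap the inputs, which held for 22.5% of all genes tested. In DN pools no member was called, against 3.38% of all genes tested, 1.84% being higher and 1.54% lower.

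Sqle had ratios above 0 in all 6 pools, at 1.08, 0.43 and 0.52 in CTRL and 1.20, 0.60 and 1.21 in DN (see the plot of ratios by pool). Its fitted difference was 0.67 ± 0.24 in CTRL (95% interval 0.13 to 1.21; unadjusted p = 0.0195; adjusted p = 0.19, edgeR) and 1.08 ± 0.33 in DN (95% interval 0.36 to 1.80; unadjusted p = 0.0068; adjusted p = 0.111). In DN, Sqle did pass with DESeq2 (adjusted p = 0.0278; 8.62% of all genes passed it) and with no filter on low counts (0.00999), within a range of 0.00999 to 0.4 over the alternatives. An unadjusted p below 0.05 was reached by 2 members in CTRL (Hmgcs1 and Sqle), against 16.3% of all genes tested, and by 1 in DN (Sqle), against 15.7%.

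Insig1 had ratios below 0 in all 6 pools, at -0.37, -0.09 and -0.71 in CTRL and -0.35, -0.24 and -0.72 in DN. Neither fitted difference passed, with -0.42 ± 0.31 in CTRL (95% interval -1.10 to 0.26; adjusted p = 0.556, edgeR) and -0.47 ± 0.38 in DN (adjusted p = 0.634). Srebf2 had fitted differences of -0.53 ± 0.42 in CTRL (adjusted p = 0.59) and -0.98 ± 0.53 in DN (95% interval -2.15 to 0.18; adjusted p = 0.417), with 1 CTRL pool, pool 3, above 0 at 0.20. Pool ratios of both signs were also found for Fdft1 and Cyp51. Fdft1 ranged from -1.25 in DN pool 2 to 1.49 in DN pool 1, and Cyp51 from -1.28 in DN pool 1 to 0.95 in CTRL pool 3. Their adjusted p-values were 0.477 to 0.988 over both arms.

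**Figure D2:**
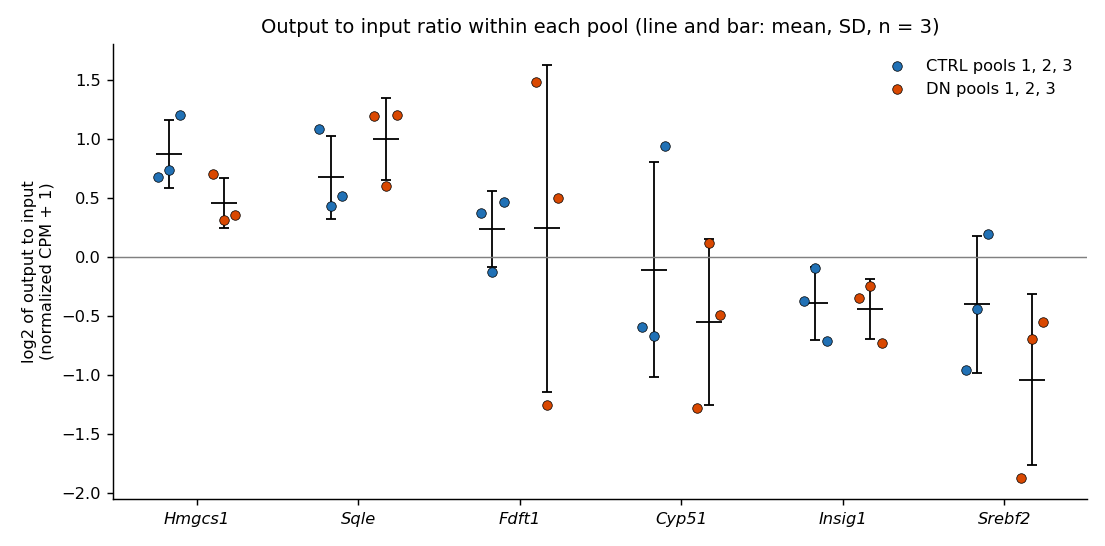
Log2 ratio of output to input (vertical axis, normalized CPM + 1) within each pool, for the 6 tested genes on the horizontal axis. Points are the 3 CTRL and 3 DN pools, lines and bars the mean and SD. Hmgcs1 and Sqle lie above 0 in all 6 pools and Insig1 below 0 in all 6, while Fdft1 in DN pools spreads from -1.25 to 1.49.

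All ratios are relative to the bulk of the genes, which TMM factors align. With them, and also with mitochondrial genes left out, 3 of the 6 tested members had the higher mean in outputs in each arm. Leaving the factors out multiplied the levels of all members nearly alike, by 1.65 to 1.84 in outputs and 0.53 to 0.638 in inputs, so that all 6 then had the higher mean in outputs, a shift common to the libraries that says nothing of single members. In bulk RNA, fewer cells of a type and less RNA per cell cannot be told apart. Other markers moved with the fraction: the summed level of 10 astrocyte markers was 2752 to 3341 CPM in CTRL inputs and 1523 to 1728 in CTRL outputs, and 2819 to 3201 and 1030 to 1137 in DN. The sum of 10 oligodendrocyte markers was 1006 to 1252 CPM in CTRL inputs and 235 to 373 in CTRL outputs, and 1006 to 1226 and 200.5 to 301 in DN. The sum of 9 VMN neuron markers went the other way, from 527 to 585 CPM in CTRL inputs to 1444 to 1657 in CTRL outputs, and from 539 to 734 to 1742 to 2431 in DN. Their part in the ratios of the sterol genes was not tested. In both arms all 10 astrocyte and all 10 oligodendrocyte markers had fitted differences of output against input below 0. All 9 VMN neuron markers had them above 0 in both arms. Pan neuronal markers had 7 of 8 above 0 in CTRL and 6 of 8 in DN.

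The second question was whether DN AMPK altered these RNAs on the ribosomes of SF1 cells. In outputs none of the 6 members was called, against 0% of 13333 genes tested (edgeR), where 721 genes, or 5.41%, had an unadjusted p below 0.05 and DESeq2 called 58, or 0.435%, none of them a member. Hmgcs1 had the smallest p among the members, with 135 ± 3.2 CPM (SD, n = 3) in CTRL outputs and 97.3 ± 8.57 in DN outputs. Its fitted difference was -0.47 ± 0.18 (95% interval -0.86 to -0.09; 0.721-fold; unadjusted p = 0.02; adjusted p = 0.911, edgeR), and its adjusted p ranged from 0.383 to 1 over the alternatives. The 3 DN outputs lay below the 3 CTRL outputs, which held for no other member and, in either direction, for 11% of all genes tested.

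Intervals for the other members in outputs were wide. Sqle differed by 0.20 ± 0.30 (95% interval -0.46 to 0.86), with DN output 2 at 46.8 CPM and the other DN outputs at 109 and 96.7. Fdft1 differed by 0.32 ± 0.31 (-0.37 to 1) and Cyp51 by -0.28 ± 0.35 (-1.04 to 0.48). Single libraries set these sizes: leaving out 1 replicate gave 0.094 (without CTRL output 2) to 0.50 (without DN output 2) for Fdft1 and -0.43 (without CTRL output 1) to -0.022 (without CTRL output 3) for Cyp51. For the 2 regulators the differences were near 0, with -0.02 ± 0.38 for Insig1 (-0.85 to 0.81) and -0.05 ± 0.54 for Srebf2 (-1.23 to 1.13). Adjusted p-values of these 5 genes were 0.975 to 0.999. The median difference of the members was -0.03, against 0.01 over all genes tested.

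The sums of 3 of the 8 marker lists also did not overlap between the arms in outputs, which held for 11% of all single genes tested. Astrocyte markers were at 1523 to 1728 CPM in CTRL and 1030 to 1137 in DN, VMN neuron markers at 1444 to 1657 in CTRL and 1742 to 2431 in DN, and pan neuronal markers at 6896 to 7252 in CTRL and 7770 to 8638 in DN. Of the 9 astrocyte markers tested there, 4 had differences above 0 and 5 below, and none was called by edgeR. The 9 VMN neuron markers had 8 above 0 and 1 below, with a median of 0.40 against 0.01 over all genes tested. The 8 pan neuronal markers had 5 above 0 and 3 below. No marker of these 2 lists was called by edgeR. Slc1a2, an astrocyte glutamate transporter named after its values were seen, differed by -0.63 ± 0.11 (adjusted p = 0.88, edgeR; 0.00949, DESeq2). The part of these markers in the lower Hmgcs1 values was not tested.

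In inputs, no member was called, against 0.00756% of 13221 genes tested, and none had an unadjusted p below 0.05, against 4.46%. DESeq2 called no member either, against 0.0151% of all genes. Hmgcs1 was at 73.8 ± 12.6 CPM (SD, n = 3) in CTRL and 71.5 ± 15.7 in DN, with a fitted difference of -0.05 ± 0.24 (95% interval -0.57 to 0.48). Fdft1 had the largest value among the members, at 0.57 ± 0.43 (-0.36 to 1.5), and this turned to -0.22 without DN input 2. The other members had 0.41 ± 0.43 for Srebf2 (-0.53 to 1.34), 0.19 ± 0.36 for Cyp51 (-0.59 to 0.97), 0.03 ± 0.31 for Insig1 (-0.65 to 0.72) and -0.21 ± 0.29 for Sqle (-0.83 to 0.42). All groups overlapped, which 10.5% of all genes tested did not. The sum of pan neuronal markers did not overlap in inputs, at 4591 to 5053 CPM in CTRL and 5397 to 5726 in DN. The sum of VMN neuron markers did overlap, but 3 of the 9 single markers did not, Nr5a1 among them. Nr5a1 was at 2.07 ± 0.845 CPM (SD, n = 3) in CTRL inputs and 6.03 ± 1.15 in DN inputs. Of the 9 differences 6 were above 0 and 3 below, and none was called. The part of these markers in the values of the members was not tested.

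**Figure D3:**
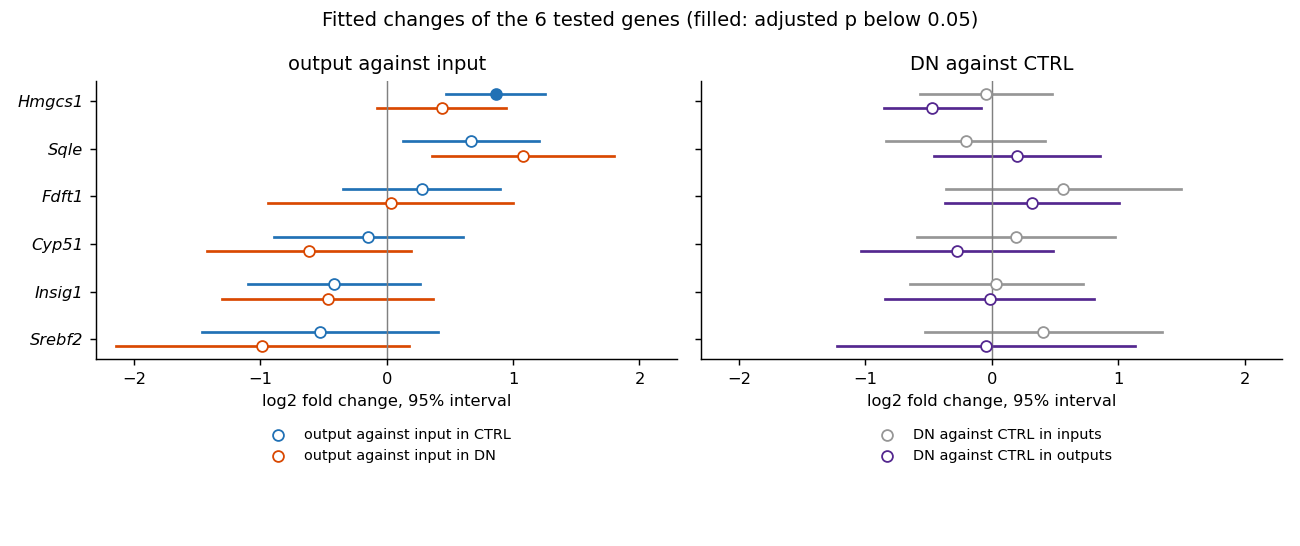
Fitted log2 fold changes (horizontal axes, points) with 95% intervals (lines) of the 6 tested genes, for output against input in each arm and for DN against CTRL in each fraction; filled points have an adjusted p below 0.05. The filled point is Hmgcs1 in CTRL outputs against inputs at 0.86, and its DN against CTRL interval in outputs, -0.86 to -0.09, does not reach 0 although its adjusted p is 0.911.

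Whether the DN effect differed between fractions, or equally the enrichment between arms, was tested by an interaction term over all 12 libraries. No member was called, against 0% of 15011 genes tested by edgeR, where 933 genes, or 6.22%, had an unadjusted p below 0.05 and DESeq2 called 0.606%. For Hmgcs1, called in CTRL and not in DN, the difference between the arms was -0.42 ± 0.29 (95% interval -1.03 to 0.18; unadjusted p = 0.158; adjusted p = 0.896), so a difference in enrichment was not shown. For Sqle it was 0.41 ± 0.43 (-0.50 to 1.32; adjusted p = 0.956). Fdft1, Cyp51, Insig1 and Srebf2 had values of -0.25 ± 0.58, -0.47 ± 0.50, -0.05 ± 0.44 and -0.46 ± 0.69, with adjusted p-values of 0.957 to 1. Of the 6 values 5 were below 0, with a median of -0.34 against -0.02 over all genes tested.

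The longer list of 40 sterol genes was followed by step. In outputs of DN against CTRL, 37 could be tested and none was called (15 above 0 and 22 below, median -0.17 against 0.01 over all genes), and in inputs 36 could be tested and none was called (19 above and 17 below, median 0.07 against 0.03). Among the mevalonate steps, Acat2, the cytosolic thiolase that joins 2 acetyl-CoA upstream of Hmgcs1, was at 7.20, 9.27 and 9.10 CPM in CTRL inputs and 15.7, 12.4 and 39.6 in DN inputs. Its outputs were at 19.9, 15.9 and 15.6 in CTRL and 12, 7.64 and 11.9 in DN. DN pools were thus higher in inputs and lower in outputs, with no overlap in either. Of the 40 genes, 4 of 36 tested did not overlap in inputs and 6 of 37 in outputs, against 10.5% and 11% of all genes tested.

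Lss, which closes squalene epoxide to lanosterol and so acts right after Sqle, had means in the opposite order. Its arms overlapped in inputs, with a lowest CTRL value of 16.1 and a highest DN value of 16.6. In outputs they were apart, at most 14.8 in CTRL and at least 15 in DN. Lss was at 23.4, 16.1 and 22.0 CPM in CTRL inputs and 6.49, 7.73 and 16.6 in DN inputs. It was at 2.75, 14.8 and 11.7 in CTRL outputs and 51.6, 15 and 18.3 in DN outputs. All 3 CTRL pools had Acat2 ratios above 0 and Lss ratios below 0, and all 3 DN pools the reverse, a pattern of opposite pools found in 1.95% of all genes tested. Neither interaction passed (Acat2 -2.11 ± 0.65, unadjusted p = 0.00513; Lss 2.54 ± 0.85, unadjusted p = 0.0086; adjusted p = 0.691 for both, edgeR). Without DN pool 1, whose output held 51.6 CPM, the value of Lss was 1.53.

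Dhcr7, which catalyses the last step of a branch of the pathway, had 11.4 ± 5.22 CPM in CTRL outputs against 3.57 ± 1.35 in CTRL inputs, a difference of 1.66 ± 0.56 (adjusted p = 0.154, edgeR; 0.0435, DESeq2). In DN outputs it was at 4.72 ± 0.896 CPM, which gave -1.28 ± 0.59 against CTRL outputs (adjusted p = 0.911), or -0.84 without CTRL output 2, at 17.4 CPM.

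Of the receptors and transport genes, Vldlr, a lipoprotein receptor, was at 80.5 ± 6.49 CPM in CTRL inputs and 115 ± 10.1 in CTRL outputs, a difference of 0.51 ± 0.17 (adjusted p = 0.145). Npc2, which hands cholesterol out of lysosomes, was at 12.2, 20.5 and 11.2 CPM in DN inputs and 0.383, 3.13 and 2.36 in DN outputs. Its difference of -2.91 ± 0.83 missed the threshold (adjusted p = 0.086, edgeR) and passed with DESeq2 (0.00209), with no filter (0.0186), with a mean of at least 5 CPM (0.0444) and in 1 fit of all 12 libraries (0.0308).

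Apoe, the apolipoprotein that carries cholesterol from astrocytes to neurons, was the only sterol gene outside the members that edgeR called in any of the 5 comparisons. It fell in outputs of both arms. In CTRL it was at 36.7, 28.8 and 33.9 CPM in inputs and 2.67, 2.41 and 3.20 in outputs, a log2 difference of -3.60 ± 0.36 (adjusted p = 0.000402, edgeR). In DN it was at 41.8, 45.1 and 35.9 in inputs and 0.736, 4.05 and 2.16 in outputs, a difference of -4.15 ± 0.61 (adjusted p = 0.0027). The DN call was lost without DN pool 3 (-4.20, adjusted p = 0.0606), while the CTRL call passed under every alternative (adjusted p at most 0.0351). Apoe moved with the astrocyte markers, whose sums are given above, and their part was not tested.

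Srebf1, which encodes the sister factor SREBP1 of fatty acid synthesis, was at 5.22, 6.58 and 11.6 CPM in CTRL inputs and 0.0143, 0.933 and 0.427 in CTRL outputs. Its difference of -4.10 ± 1.13 gave an adjusted p of 0.0807 (edgeR), which passed with the pool as a block (-4.90, adjusted p = 0.0399), with no filter (0.0055) and with DESeq2 (0.000605). Srebf2 had no such gap, with 19.3 ± 10.2 CPM in CTRL inputs and 13.4 ± 2.71 in CTRL outputs; whether the 2 genes differed in their ratio was not tested. Soat1, which esterifies cholesterol for storage, was at 32.8, 41.2 and 22.6 CPM in DN inputs and 11.9, 6.83 and 14.5 in DN outputs. That gave -1.55 ± 0.45 (adjusted p = 0.0924, edgeR; 0.0057, DESeq2), and its DN outputs were below the CTRL outputs at 42.1, 23.6 and 16.9 with a difference of -1.32 ± 0.47 (unadjusted p = 0.0166; adjusted p = 0.911).

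Of the 40 genes, 37 could be tested for output against input in CTRL, with 18 differences above 0, 19 below and 1 called lower, and 38 in DN, with 17 above, 21 below and 1 called lower. Over all genes tested 3.2% were called in CTRL (1.42% lower) and 3.38% in DN (1.54% lower). The called gene was Apoe each time. Medians were -0.08 in CTRL and -0.17 in DN, against 0.02 and 0.00405 over all genes tested. DESeq2 called 3 of them in CTRL (Dhcr7, Srebf1 and Apoe), against 8.71% of all genes, and 6 in DN (Srebf1, Lrp1, Npc2, Abca1, Apoe and Soat1), against 8.62%. In the interaction 39 could be tested, none was called, and 17 values were above 0 and 22 below.

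**Figure D4:**
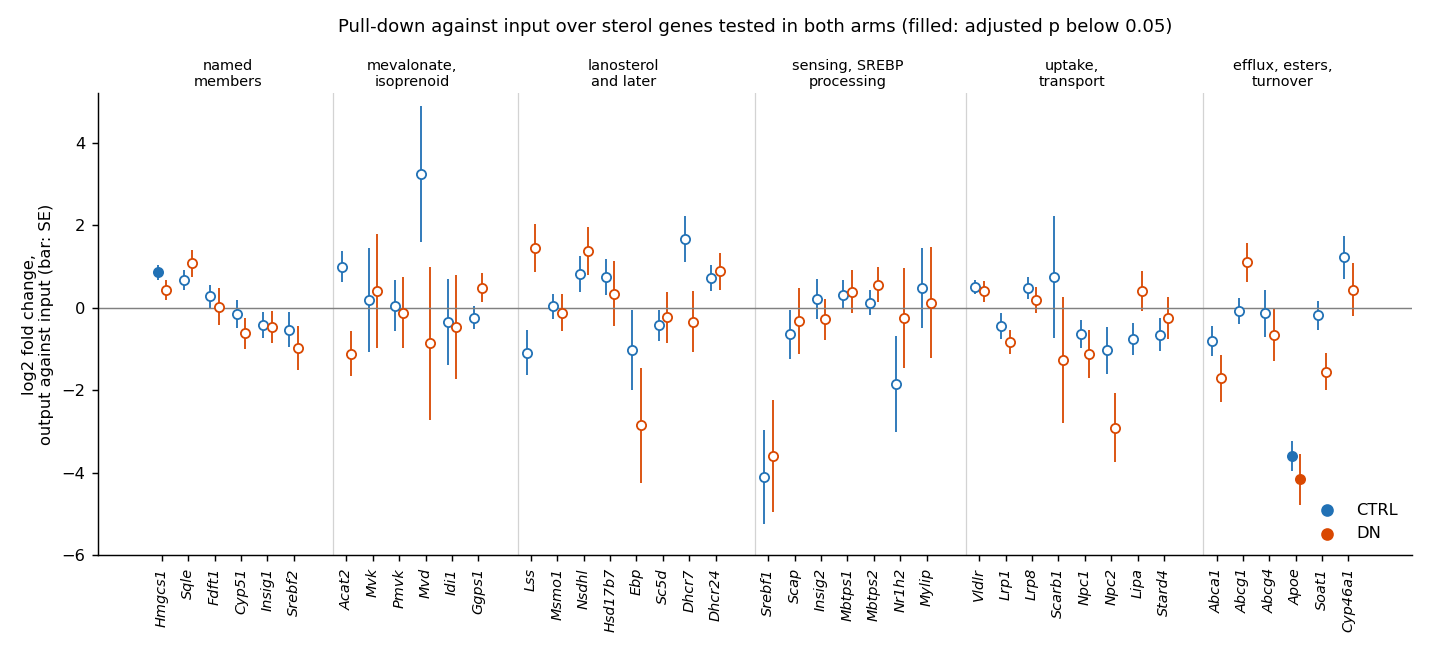
Fitted log2 fold change of output against input (vertical axis, points, with SE bars) for sterol genes tested in both arms, grouped along the horizontal axis by pathway list, in CTRL and DN; filled points have an adjusted p below 0.05. Apoe is filled in both arms at -3.60 and -4.15 and Hmgcs1 in CTRL at 0.86, while most other genes scatter around 0.

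Between libraries of a group the members deviated in both directions. For each gene the group mean of log2(normalized CPM + 1) was subtracted from the value of each library, and these deviations were correlated over the 12 libraries, which share group means and, in pairs, a pool. Of 15 pairs of members 8 had a Pearson r above 0, and the median was 0.0024. The lowest values were -0.55 for Fdft1 with Cyp51 and -0.42 for Hmgcs1 with Sqle, and the highest 0.50 for Cyp51 with Srebf2 and 0.46 for Hmgcs1 with Fdft1. The largest single deviation was 1.11 for Fdft1 in DN input 2, where Cyp51 was at -0.54, Srebf2 at -0.53 and Sqle at -0.35. In DN output 2, Sqle had its lowest deviation, -0.74, while Hmgcs1 was at 0.13. No library was high or low for all 6 genes.

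**Figure D5:**
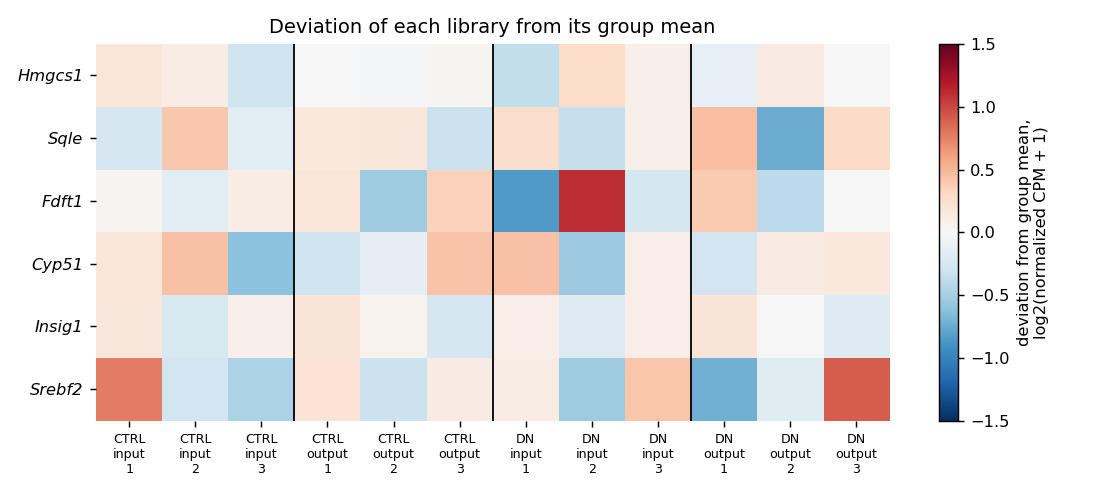
Deviation of each library (horizontal axis) from its group mean, as log2(normalized CPM + 1), for the 6 tested genes (rows); colour gives sign and size. Every library has deviations of both signs, and the strongest is Fdft1 in DN input 2 at 1.11.

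The mean deviation of the 7 members was also set against 7708 protein-coding genes with a mean of at least 5 CPM. The 5 genes most like it were Ginm1 (r = 0.954 over 12 libraries), Slc8a2 (0.902), Prdm2 (0.883), 4933434E20Rik (0.862) and Stip1 (0.855), none of which is in the sterol lists. The sterol gene most like it was Abcg4, a cholesterol exporter, at 0.751 and rank 69, followed by Lrp1 at 0.653. These are the highest of many correlations over few libraries and are given as a description.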

How the data were processed

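The authors deposited a table of raw read counts by Ensembl identifier for each library. The submitters' processing notes name HTSeq 0.6.1, STAR 2.4.2a and cutadapt 1.3, with genome build GRCm38. Per the labels' protocols, RNA of every sample went through linear amplification (NuGEN Ovation), which can change the proportions of RNAs. Sources used here do not give the annotation release, strand setting or read length. Entries for reads assigned to no gene (5 classes, 16.1 to 26.1% of reads) were left out. Symbols came from GENCODE release 21, which held 46005 of 46517 identifiers (98.9%).

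Each comparison was fitted to the counts of its own 6 libraries, and the interaction to all 12, with the two-sided quasi-likelihood test of edgeR 4.0.16 in R 4.3.3, TMM scaling and filterByExpr at a minimum count of 10 and a total of 15. Benjamini-Hochberg adjustment ran over all genes tested, and the threshold was 0.05. The main fits did not use the pairing of input and output by pool. Levels are CPM with TMM factors over the 12 libraries, and pool ratios are of CPM + 1. The alternatives were DESeq2 1.42.0, its size factors, upper quartile scaling, other filters, leaving out mitochondrial genes, 1 fit of all 12 libraries, leaving out each replicate and a replicate block. The fits were tested on simulated counts.

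The 7 genes, the lists of 40 other sterol genes and of cell markers, and the tests were chosen with earlier results of these data known. Besides the members, the rule for named genes took, per list and comparison, every gene past the threshold and the 2 with the smallest p, and the 5 genes most like the members' mean deviation. A few genes this rule took are counted in their lists but not reported here by name or in plots.

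Input and output of a number come from the same animals, so the numbers pair those libraries. Their deviations from group means correlated over genes at r = 0.148, 0.0519 and 0.212 in CTRL and 0.00975, -0.00562 and 0.0107 in DN. Between DN and CTRL a number joins unrelated animals (r from -0.0335 to 0.0112).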

Additional observations from a re-analysis of the deposited data

How the results depend on the processing

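Adjusted p-values of members stayed on their side of the threshold under all alternatives except for Hmgcs1 and Sqle, whose values are in the report. Of 1039 values of single genes under an alternative, 987 kept direction and call, 16 gained a call, 5 lost it and 31 changed sign; the cause was not tested. The signs that changed were of differences that had not passed, in members and in Apoe for DN against CTRL in outputs. With a pool as replicate block, output against input gave 527 calls in CTRL (272 higher, 255 lower; 400 shared with 431) and 396 in DN (353 shared with 441), and the interaction 0; the block changed the call of Srebf1 in CTRL and of no other named gene. The replicate block by number, which pairs unrelated animals, gave 0 calls for DN against CTRL in outputs and in inputs.

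Calls over all genes depended on the test. DESeq2 called 58 genes for DN against CTRL in outputs (0 by edgeR), 2 in inputs (1 by edgeR), 1172 (597 higher) and 1124 (503 higher) for output against input in CTRL and DN, and 91 in the interaction. With no filter the counts were 39 in inputs, 903 and 976 for the pull-down, and 54 in the interaction. The call in inputs was lost, leaving 0, with DESeq2 size factors, upper quartile scaling, a mean of at least 5 CPM, mitochondrial genes left out and 1 fit of all 12 libraries, which gave 673 calls for the pull-down in DN. Upper quartile scaling turned 240 higher and 191 lower calls in CTRL into 160 and 194. Leaving out a pool gave 45 to 214 calls in CTRL (17 higher and 37 lower without pool 1, 13 and 32 without pool 2, 100 and 114 without pool 3), 115 to 148 in DN and 0 to 8 in inputs, 8 being without CTRL replicate 3. Of the sterol genes, 2 were called in CTRL, but 1 with upper quartile scaling, 4 with DESeq2 and 1 without any of the 3 pools; in DN it was 1, but 7 with DESeq2, 5 with no filter, 3 with at least 5 CPM, 3 in 1 fit of all 12 libraries and 0 to 1 without a pool (0 without DN pool 3).

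Log2 differences near 0 changed sign. For Insig1 in inputs it was -0.025 with upper quartile scaling, and for Fdft1 in DN pull-downs -0.004 with DESeq2 size factors, -0.0041 with DESeq2 and -0.092 with at least 5 CPM. The interaction of Fdft1 was 0.028 with the replicate block. Leaving out a replicate gave ranges in outputs of -0.022 to 0.49 for Sqle, -0.14 to 0.086 for Insig1, -0.70 to 0.27 for Srebf2 and -0.93 to 0.17 for Apoe. In inputs they were -0.19 to 0.12 for Hmgcs1, -0.35 to 0.028 for Sqle, -0.22 to 0.91 for Fdft1, -0.065 to 0.42 for Cyp51 and -0.086 to 0.13 for Insig1. Output against input gave -0.65 to 0.17 for Cyp51 in CTRL and -0.53 to 0.99 for Fdft1 in DN. In the interaction the ranges were -0.81 to 0.72 for Fdft1, -0.78 to 0.049 for Cyp51 and -0.20 to 0.095 for Insig1. Input libraries had at most 11.3 M nuclear counts, and Fdps had at most 10 counts in any input, too few for a test.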
